A study of Mus musculus with 4 samples.

Results

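The regions described here are H3K27me2 peaks of mouse zygotes that the authors' annotation placed in distal intergenic sequence, outside genes and the windows just around them, and whose nearest edge lay under 100 kb from the start of the nearest transcript. They were chosen by that annotation and by the absolute value of the listed distance, which is below 0 upstream and above 0 downstream of the start. Of the 56036 peaks on chromosomes 1 to 19 and X in 4 deposited lists, 14112 (25.2%) met the rule. A further 7753 intergenic peaks lay 100 kb or farther from a start, and 34171 peaks were not intergenic.

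C57BL/6J eggs were fertilized in vitro with PWK/PhJ sperm, zygotes at the PN5 stage were freed of polar bodies, and H3K27me2 was profiled by ULI-NChIP-seq, a native chromatin immunoprecipitation for very small samples of MNase-digested chromatin. Ezh2m+/p+ zygotes came from Ezh2 fl/fl mothers and Ezh2m-/p+ zygotes from Ezh2 fl/fl mothers with Gdf9-Cre, whose promoter drives Cre in oocytes and removes exon 4 of the maternal Ezh2 allele, while the paternal allele was intact in both groups. The mothers of both groups were 6 weeks old or older. The zygotes of a group were pooled, and each group had 1 H3K27me2 library and 1 input library. Strain variants assigned the reads to a parental genome, C57BL/6 for maternal and PWK for paternal reads, giving 1 list for each parental genome of each genotype, with the genotypes named here as the lists are labelled. Since the lists give peaks and not reads, neither the deletion of the exon nor the level of Ezh2 could be examined in them. The study's summary of peak numbers assigns the 4 lists to genotypes as their labels do, whereas a display in its supplement gives the peak categories of the 4 lists under the opposite genotype, so every direction between the genotypes holds for the lists as labelled. Read depth per parental genome was not examined. With 1 library per group there was no replicate check and no test between groups, and the 95% Wilson intervals given below cover only the counting error of peaks in these libraries.

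Dimethylation of lysine 27 of histone H3 is laid down by Polycomb repressive complex PRC2, whose catalytic subunit is EZH2 or EZH1, with EED and SUZ12 as core partners and JARID2 as an accessory subunit. In many cell types the dimethyl mark covers broad stretches of chromatin outside active genes, including sequence between genes, while the trimethyl mark is concentrated over silent developmental genes. After fertilization the paternal chromatin is rebuilt on maternal histones, so that its histone marks are largely set anew in the zygote.

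To show the kind of sequence behind these peaks, 300 bases are given from the centre of the stretch shared by overlapping members of both lists. These are the plus strand of the mm10 reference of C57BL/6J, also for the paternal lists, with CpG dinucleotides in capitals. In the maternal genome the pairs of largest fold upstream and downstream of a start were those nearest Rxra, which encodes a retinoid X receptor, and Lhx9, a LIM homeobox gene. The window near Rxra (chr2:27612851-27613150) held 0 CpG and that near Lhx9 (chr1:138773151-138773450) held 1. A window need not stand for its stretch, since the whole shared stretches held 10.4 CpG per kb near Rxra and 4.62 near Lhx9.
Rxra, maternal, upstream: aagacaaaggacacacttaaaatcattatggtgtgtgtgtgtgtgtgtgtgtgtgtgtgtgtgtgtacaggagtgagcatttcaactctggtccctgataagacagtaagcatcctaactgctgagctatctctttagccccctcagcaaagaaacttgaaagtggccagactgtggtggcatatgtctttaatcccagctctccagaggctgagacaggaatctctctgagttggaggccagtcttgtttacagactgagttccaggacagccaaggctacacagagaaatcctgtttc
Lhx9, maternal, downstream: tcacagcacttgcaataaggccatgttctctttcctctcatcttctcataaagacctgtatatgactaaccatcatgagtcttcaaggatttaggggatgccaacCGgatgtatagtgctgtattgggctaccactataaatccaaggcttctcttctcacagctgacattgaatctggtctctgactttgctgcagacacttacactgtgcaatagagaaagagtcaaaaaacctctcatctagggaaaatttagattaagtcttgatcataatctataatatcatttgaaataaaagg
In the paternal genome the corresponding pairs were nearest Stx12, a syntaxin of endosomes (chr4:132891051-132891350), and Tex35, a gene expressed in testis (chr1:157091751-157092050). Each of these windows held 1 CpG.
Stx12, paternal, upstream: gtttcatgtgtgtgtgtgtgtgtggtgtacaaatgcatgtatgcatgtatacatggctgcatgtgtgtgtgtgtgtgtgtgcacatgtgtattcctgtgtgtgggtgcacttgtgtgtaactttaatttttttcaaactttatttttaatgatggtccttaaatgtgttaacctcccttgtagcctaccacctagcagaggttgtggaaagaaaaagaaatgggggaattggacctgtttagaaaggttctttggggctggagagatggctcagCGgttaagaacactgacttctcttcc
Tex35, paternal, downstream: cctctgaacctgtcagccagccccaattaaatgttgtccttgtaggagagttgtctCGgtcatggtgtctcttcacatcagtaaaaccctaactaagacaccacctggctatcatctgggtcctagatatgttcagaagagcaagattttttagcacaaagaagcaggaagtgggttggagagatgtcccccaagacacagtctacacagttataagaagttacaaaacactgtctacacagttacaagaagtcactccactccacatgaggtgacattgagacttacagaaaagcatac
Few members overlapped between the parental genomes of the same zygotes. The pairs with the largest folds in Ezh2m+/p+ zygotes lay nearest Tmprss12, a transmembrane serine protease gene (chr15:100268951-100269250), and Ehf, an ETS factor gene of epithelia (chr2:103244951-103245250). Their windows held 2 and 5 CpG.
Tmprss12, maternal and paternal: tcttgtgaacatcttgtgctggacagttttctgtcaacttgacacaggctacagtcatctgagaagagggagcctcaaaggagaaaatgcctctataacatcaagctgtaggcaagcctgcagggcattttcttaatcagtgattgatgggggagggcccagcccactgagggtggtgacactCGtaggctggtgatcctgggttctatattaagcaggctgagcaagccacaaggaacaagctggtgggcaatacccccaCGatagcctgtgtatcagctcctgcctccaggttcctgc
Ehf, maternal and paternal: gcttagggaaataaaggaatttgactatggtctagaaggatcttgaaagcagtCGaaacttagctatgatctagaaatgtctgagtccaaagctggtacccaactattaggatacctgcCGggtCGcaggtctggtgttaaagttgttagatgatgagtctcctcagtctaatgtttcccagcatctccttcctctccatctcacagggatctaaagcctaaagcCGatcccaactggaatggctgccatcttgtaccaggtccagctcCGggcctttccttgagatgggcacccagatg

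Intergenic peaks under 100 kb made up close to the same share of every list. There were 1382 of 5744 peaks in the Ezh2m+/p+ maternal list (24.1%, 23.0 to 25.2%) and 2422 of 9606 in the Ezh2m-/p+ maternal list (25.2%, 24.4 to 26.1%). The paternal lists had 4649 of 17863 in Ezh2m+/p+ (26.0%, 25.4 to 26.7%) and 5659 of 22823 in Ezh2m-/p+ (24.8%, 24.2 to 25.4%). The same class of sequence, intergenic and under 100 kb from a start, took up 21.2% of the known sequence of mm10. Members were therefore a larger share of peaks in all 4 lists than of the sequence.

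Among intergenic peaks, the members' share was higher in the maternal lists. The Ezh2m+/p+ maternal list had 71.0% (68.9 to 73.0%) and the Ezh2m-/p+ maternal list 70.4% (68.8 to 71.9%), against 64.7% (63.6 to 65.8%) and 60.9% (59.9 to 61.9%) in the paternal lists. Of all intergenic sequence in mm10, 46.3% lay under 100 kb from a start. The intervals of the maternal and paternal lists of a genotype did not overlap.

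Members were short regions with few distinct fold values. Their median length was 2799 bp in Ezh2m+/p+ maternal, 2199 bp in Ezh2m-/p+ maternal, 1799 bp in Ezh2m+/p+ paternal and 1999 bp in Ezh2m-/p+ paternal lists, and the shortest was 999 bp in each. The fold is the ratio of H3K27me2 to input reads in a peak as the authors' peak caller gave it, and its median was 7.54, 23.7, 36.1 and 15.8 in the same order. The 4649 Ezh2m+/p+ paternal members shared only 212 distinct folds, 827 of them at 36.1, and 578 of the 5659 Ezh2m-/p+ paternal members stood at 63.0. In the maternal lists 113 and 148 distinct folds were found. Folds were used to rank members within a list, and pairs of members from different lists were ordered by the smaller of their folds as listed. Levels were not compared between lists by fold.

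Upstream members outnumbered downstream members in each list. In the maternal genome 896 of 1382 Ezh2m+/p+ members (64.8%, 62.3 to 67.3%) and 1581 of 2422 Ezh2m-/p+ members (65.3%, 63.4 to 67.1%) lay upstream. In the paternal genome 2935 of 4649 (63.1%, 61.7 to 64.5%) and 3539 of 5659 (62.5%, 61.3 to 63.8%) did. The intergenic sequence of mm10 under 100 kb from a start was itself 64.1% upstream. This value lay inside the intervals of the maternal lists and of the Ezh2m+/p+ paternal list and above that of the Ezh2m-/p+ paternal list. With 1 member per nearest gene the upstream share was 65.0% in both paternal lists, which is above that of the sequence. The order of the Ezh2m-/p+ paternal list and the sequence thus depended on how members were counted.

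**Figure D1:**
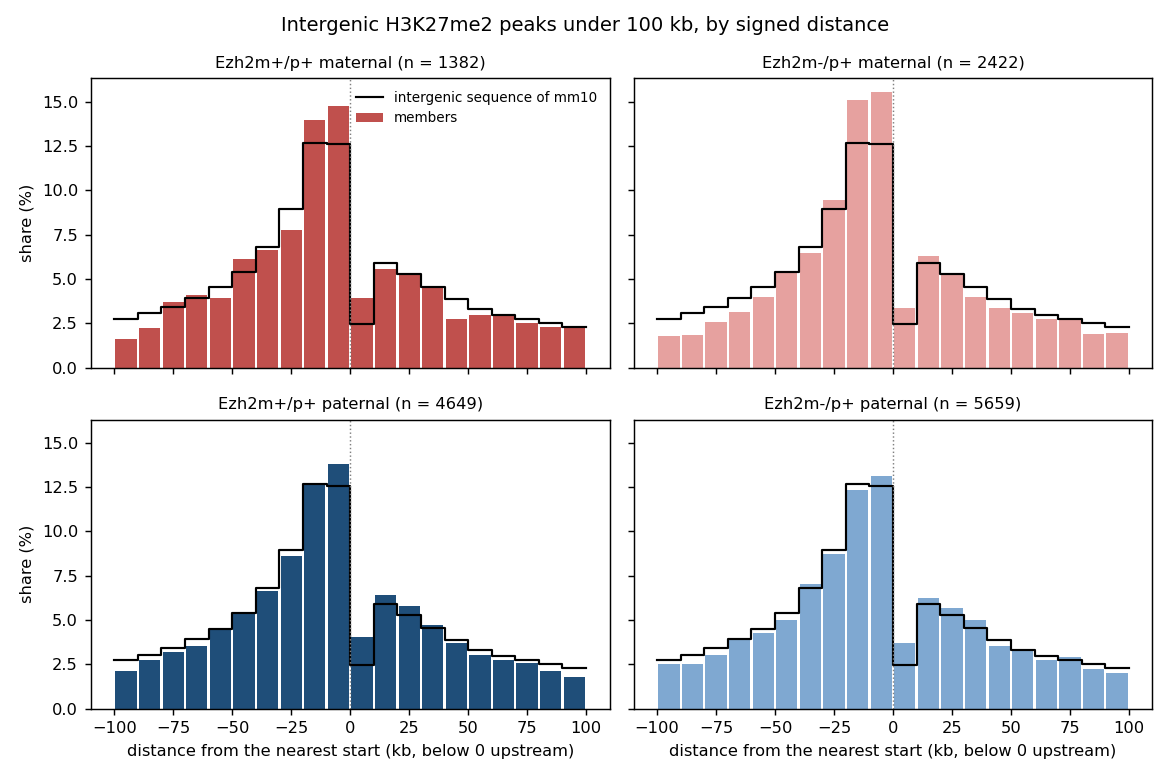
Share of members (vertical axis, %) in 10 kb bins of the signed distance to the nearest start (horizontal axis, kb), with 1 panel per list; the black line gives the share of the intergenic sequence of mm10 in each bin. Bars follow the line in all 4 panels, are highest just upstream of the start and stand above the line in the 10 kb just downstream of it.

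The upstream share fell with distance in members as in the sequence. Under 10 kb from a start it was between 77.4% and 82.3% in the 4 lists, beside 83.6% of the sequence. At 50 to 100 kb it was between 51.8% and 56.9%, beside 56.1%. Beyond 100 kb it was between 46.0% and 51.1%, where 51.9% of the sequence lay upstream.

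The median distance of members to a start was slightly below that of the intergenic sequence in the 4 lists as deposited. Their median distance was 28515 bp (95% interval 26513 to 30969) in the Ezh2m+/p+ maternal and 26286 bp (24809 to 27711) in the Ezh2m-/p+ maternal list. In the paternal genome, Ezh2m+/p+ members had a median of 29125 bp (27973 to 30234) and Ezh2m-/p+ members of 30125 bp (29121 to 31140), and that of the sequence was 31766 bp. The 569 Ezh2m+/p+ maternal members with a fold over 10 had a median of 31989 bp, which is not closer than the sequence. Distances of members were taken from the nearest edge and those of the sequence in 200 bp bins, so a member counts as closer by up to its own length. Between 16.8% and 18.9% of members lay under 10 kb, beside 15.1% of the sequence.

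The sides also differed in distance. Upstream members lay at a median of 24458 bp in Ezh2m+/p+ maternal and 21891 bp in Ezh2m-/p+ maternal lists, and downstream members at 36024 and 34981 bp. In the paternal lists the medians were 25746 and 25902 bp upstream against 34042 and 35323 bp downstream. The nearest transcripts had a median length of 4944 to 5374 bp for downstream and 26729 to 30040 bp for upstream members, and the part of transcript length in the distances was not tested. Median GC content and fold differed little between the sides of a list.

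The members nearest the 100 kb limit and the first peaks beyond it are given here as values. The farthest Ezh2m+/p+ maternal member lay 99918 bp from 4930441J16Rik with a fold of 6.53, and the nearest peak outside the rule lay 100090 bp from Adcy1 with a fold of 41.5. In the Ezh2m-/p+ maternal list these were 99959 bp from Polr2m (7.74) and 100159 bp from 4930534H03Rik (6.31). In the Ezh2m+/p+ paternal list they were 99975 bp from Hpcal1 (72.2) and 100000 bp from Nap1l3 (48.1). In the Ezh2m-/p+ paternal list they were 99958 bp from Nudt7 (63.0) and 100052 bp from Olfr1507 (7.88).

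Members had higher median GC and CpG content than intergenic peaks farther out in each list, with quartile ranges that overlapped for both measures. The median GC content of members was 45.6% and 45.5% in the maternal lists of Ezh2m+/p+ and Ezh2m-/p+ zygotes, and 44.7% and 44.1% in the paternal lists. Intergenic peaks at 100 kb or more had medians of 43.6%, 43.4%, 41.8% and 41.1%, and peaks that were not intergenic 45.8%, 46.0%, 45.5% and 44.7%. The intergenic sequence under 100 kb had 42.2% GC over all its bases, which is not a median over peaks. The medians of members stood above it in all 4 lists. CpG content of members had medians of 8.85, 8.85, 8.19 and 7.86 per kb, between 5.01 and 6.67 per kb in the farther peaks and 9.38 and 10.0 per kb in the peaks that were not intergenic. The sequence itself had 8.0 CpG per kb, again over all its bases, and the composition of intergenic sequence beyond 100 kb was not measured.

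**Figure D2:**
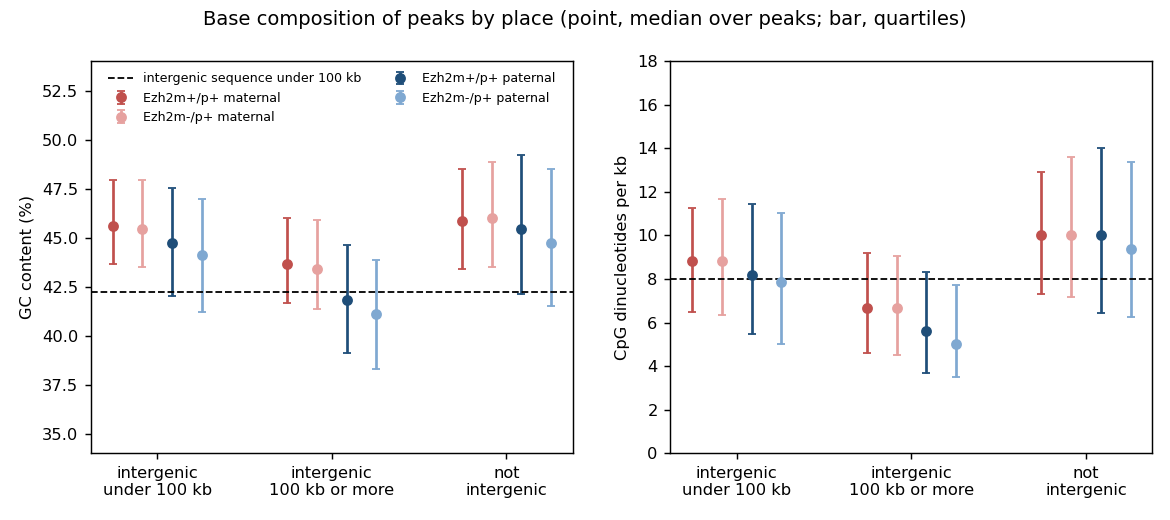
GC content (left axis, %) and CpG dinucleotides per kb (right axis) of peaks by place. Points are the median of each list and bars the quartiles. The dashed line is the intergenic sequence of mm10 under 100 kb, as a value over all its bases. Members lie between the farther intergenic peaks and the peaks that are not intergenic in median CpG content, and their median GC content is above the dashed line in all 4 lists.

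Within the members, composition shifted with distance. In the Ezh2m-/p+ paternal list the median GC content went from 44.7% under 10 kb to 43.4% at 50 to 100 kb and the median CpG content from 8.13 to 7.01 per kb. In the Ezh2m+/p+ maternal list the same medians went from 46.1% to 45.4% and from 9.17 to 8.34 per kb. Repeat-masked sequence made up a median of 22.8% to 25.1% of a member in the 4 lists. The medians were 19.6% to 24.4% in the farther intergenic peaks and 17.8% to 19.6% in the peaks that were not intergenic. In each list the median of members was the highest of these. Of all bases of the intergenic sequence under 100 kb, 40.4% were masked, which is not a median over peaks.

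Recurrence between genotypes differed by parental genome. In the maternal genome 124 of 1382 Ezh2m+/p+ members (8.97%, 7.58 to 10.6%) overlapped an Ezh2m-/p+ maternal peak by at least 1 bp, where 9.47% of all peaks of that list did. Of the 2422 Ezh2m-/p+ maternal members, 126 (5.20%, 4.39 to 6.16%) overlapped an Ezh2m+/p+ maternal peak, where 5.78% of all peaks did. In the paternal genome 3121 of 4649 Ezh2m+/p+ members (67.1%, 65.8 to 68.5%) overlapped an Ezh2m-/p+ paternal peak, beside 66.1% of all peaks. Of the 5659 Ezh2m-/p+ paternal members, 2670 (47.2%, 45.9 to 48.5%) overlapped an Ezh2m+/p+ paternal peak, beside 45.7% of all peaks. The members' shares were thus near those of all peaks in each list.

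The lists compared with were not of equal extent. The maternal lists, Ezh2m+/p+ first, covered 0.708% and 0.939% of the known sequence, and the paternal lists 1.67% and 2.61%. Paternal members recurred at a higher share than maternal members on 20 of 20 chromosomes in both genotypes. A stricter reciprocal overlap of 50% left 4.85% and 2.64% of the maternal members of Ezh2m+/p+ and Ezh2m-/p+ zygotes and 32.5% and 26.1% of the paternal members. With a fold over 10 in both lists the shares were 5.10% and 1.49% in the maternal and 46.7% and 40.5% in the paternal lists.

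Farther intergenic peaks had a lower share of recurrence than members in the paternal genome. At 100 kb or more 56.8% (54.9 to 58.8%) of Ezh2m+/p+ and 35.7% (34.1 to 37.2%) of Ezh2m-/p+ paternal peaks overlapped a peak of the other genotype, with intervals below those of the members. In the maternal genome the shares were 9.03% (6.93 to 11.7%) and 5.39% (4.17 to 6.95%), and the intervals overlapped those of the members. Peaks that were not intergenic had shares of 67.8% and 47.8% in the paternal and 9.72% and 6.07% in the maternal lists. The farther paternal peaks had median lengths of 1599 and 1999 bp, beside 1799 and 1999 bp for members, and 45.6% and 42.1% of them lay in 1 Mb windows with 20 or more paternal peaks in each genotype, against 53.2% and 46.0% of members. The part of length and crowding in the lower share was not tested.

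**Figure D3:**
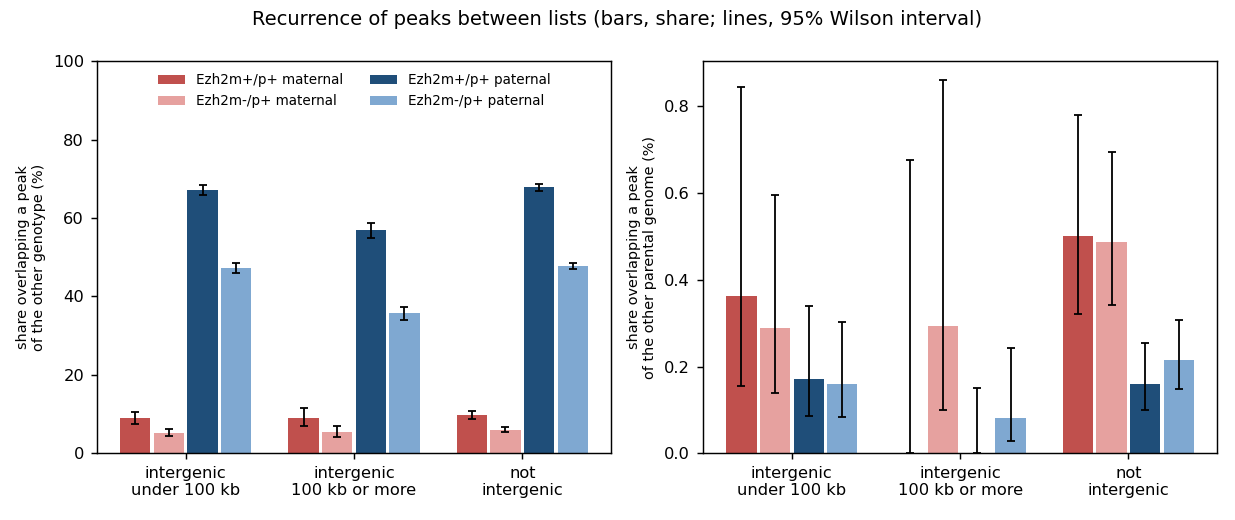
Share of peaks (vertical axes, %) that overlap a peak of the other genotype in the same parental genome (left) or of the other parental genome in the same genotype (right), for members, farther intergenic peaks and peaks that are not intergenic; bars are the 4 lists and lines the 95% Wilson intervals. Paternal members recur between genotypes at 67.1% and 47.2% and maternal members at 8.97% and 5.20%, and all shares between parental genomes are under 1%.

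Inside the 100 kb limit, neither side nor distance separated recurrent members. Upstream and downstream shares were 67.0% and 67.4% in Ezh2m+/p+ paternal and 47.5% and 46.7% in Ezh2m-/p+ paternal members. In the maternal lists they were 8.26% and 10.3% in Ezh2m+/p+ and 4.55% and 6.42% in Ezh2m-/p+ zygotes. The intervals of the sides overlapped in each list. Over the 4 bands of distance the shares ran from 66.1% to 68.2% and from 46.5% to 48.3% in the paternal lists. Those of the maternal lists ran from 7.92% to 10.5% in Ezh2m+/p+ and from 3.50% to 6.32% in Ezh2m-/p+ zygotes.

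Recurrent shares were higher in longer members, with the wider range in the paternal genome. Of Ezh2m+/p+ paternal members under 1.5 kb, 930 of 1824 (51.0%) recurred, and of those of 4 kb or more, 436 of 448 (97.3%, 95.4 to 98.5%). In Ezh2m-/p+ zygotes the shares were 28.3% and 87.0%. A longer peak offers more bases to overlap, and the part of this in the difference was not tested. Of the maternal members of 4 kb or more, 15.6% (11.4 to 20.9%) of those in the Ezh2m+/p+ list and 6.47% (3.96 to 10.4%) of those in the Ezh2m-/p+ list recurred, below the shortest class of either paternal list. In the Ezh2m+/p+ maternal list this lay above the 7.34% (3.77 to 13.8%) of members under 1.5 kb and the 7.82% (5.99 to 10.2%) at 2.5 to 4 kb, with an interval apart from the latter. The share under 1.5 kb in the Ezh2m-/p+ maternal list was 3.75% (2.44 to 5.71%), and the intervals overlapped.

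Paternal members were also crowded. In 201 windows of 1 Mb, chosen for 20 or more paternal peaks in each genotype, lay 53.2% of Ezh2m+/p+ and 46.0% of Ezh2m-/p+ paternal members, against 4.56% and 4.71% of the maternal members. In these windows 79.6% and 60.0% of the paternal members recurred, and outside them 53.0% (50.9 to 55.1%) and 36.2% (34.5 to 37.9%). Outside these windows 8.87% and 5.16% of the maternal members recurred. The gap to the next member of the same list had a median of 174601 and 95001 bp in the maternal lists and of 6001 and 5601 bp in the paternal lists of Ezh2m+/p+ and Ezh2m-/p+ zygotes. These windows were chosen for many paternal peaks in both genotypes, which by itself can raise both the crowding and the overlap of paternal members in them, so the values inside and outside the windows are a description.

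**Figure D4:**
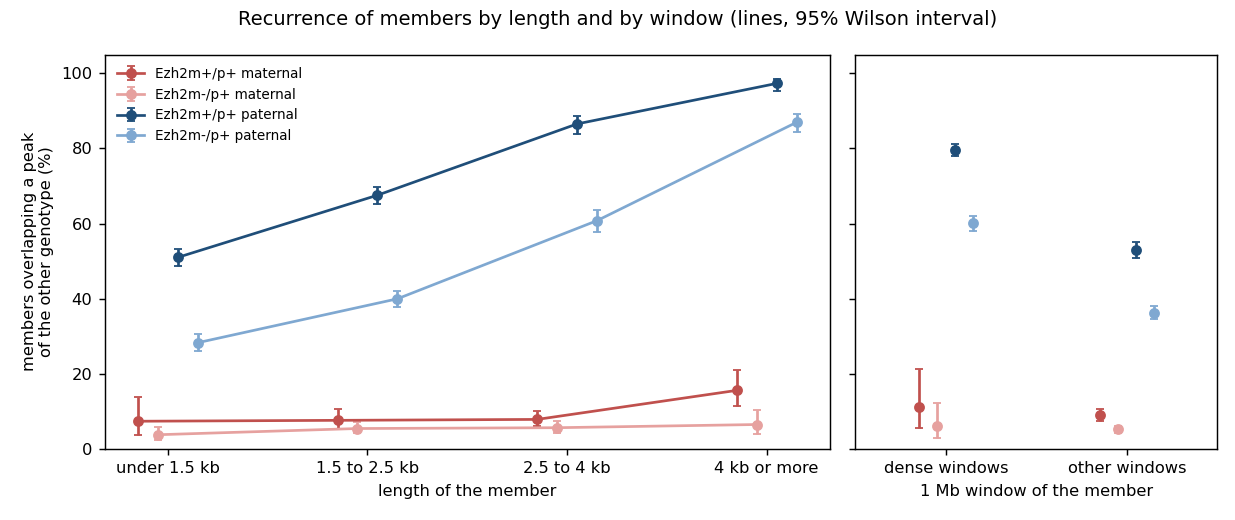
Share of members that overlap a peak of the other genotype (vertical axis, %) by length of the member (left) and by whether its 1 Mb window had 20 or more paternal peaks in each genotype (right); points are the 4 lists and lines the 95% Wilson intervals. Paternal shares climb with length, from 51.0% to 97.3% and from 28.3% to 87.0%, and the right panel is a description, since the windows were chosen for peaks of both genotypes.

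Most recurrent members met another member with the same nearest gene. Of the 3121 recurrent Ezh2m+/p+ paternal members, 2833 overlapped an intergenic peak under 100 kb of the other genotype. Of the rest, 133 overlapped a promoter peak, 156 a peak in a gene body or just downstream of a gene, and 1 a farther intergenic peak. A member could count in more than 1 of these last classes. Of the 2986 overlapping pairs of paternal members, 2936 (98.3%) had the same nearest gene in both lists. In the maternal genome 117 of 121 pairs (96.7%) did.

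Between the parental genomes of the same zygotes hardly any members overlapped. In Ezh2m+/p+ zygotes 5 of 1382 maternal members (0.362%, 0.155 to 0.844%) overlapped a paternal peak, where 0.418% of all maternal peaks did, and 8 of 4649 paternal members (0.172%, 0.0872 to 0.339%) overlapped a maternal peak, where 0.14% of all did. In Ezh2m-/p+ zygotes 7 of 2422 maternal members (0.289%, 0.140 to 0.595%) and 9 of 5659 paternal members (0.159%, 0.0837 to 0.302%) did, beside 0.416% and 0.18% of all peaks. Paternal peaks covered 1.67% and 2.61% of the known sequence in the same zygotes, which is more than the share of maternal members that met them. Within 10 kb of a peak of the other parent lay 4.78% and 6.61% of the maternal members and 1.89% and 3.62% of the paternal members of Ezh2m+/p+ and Ezh2m-/p+ zygotes, beside 5.90%, 7.22%, 2.35% and 3.78% of all peaks in the same order.

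Merged over the 4 lists, the members formed 10982 separate loci. Of these, 3046 held only Ezh2m-/p+ paternal members, 1812 only Ezh2m+/p+ paternal members and 2441 members of both paternal lists. A further 2289 held only Ezh2m-/p+ maternal, 1252 only Ezh2m+/p+ maternal and 119 both kinds of maternal members. Members of both parental genomes met in 23 loci, which is 0.624% of the 3683 loci with a maternal member and 0.314% of the 7322 with a paternal member. In 7 of these, 3 lists were present, and no locus held all 4.

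Of the 5 maternal pairs with the largest smaller fold, 2 lay upstream and 3 downstream of a start. The pair nearest Rxra spanned chr2:27610601-27614399 in Ezh2m+/p+ (fold 53.6, 62041 bp upstream) and chr2:27611601-27615199 in Ezh2m-/p+ zygotes (fold 56.6), sharing 2799 bp. The pair nearest Lhx9 had folds of 44.2 and 47.4 and lay 67830 and 67030 bp downstream, the shorter member lying within the longer. The other pairs were nearest Mettl4, which encodes an adenine methyltransferase (folds 42.9 and 45.1), C330011F03Rik, a non-coding gene model (67.0 and 40.5), and Brms1l, a component of SIN3 histone deacetylase complexes (40.2 and 42.8). All 5 pairs shared between 1199 and 3199 bp.

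Of the 5 paternal pairs chosen in the same way, 2 lay upstream and 3 downstream of a start. The members nearest Tex35 had the same ends in both genotypes, chr1:157090801-157092999, 15389 bp downstream, with folds of 235 and 441. Near Tcf23, a basic helix-loop-helix factor gene, the members lay 24539 and 23939 bp downstream (folds 181 and 465). The members near Ifi203, an interferon-inducible gene, also had the same ends in both lists, chr1:173954401-173955799, 11729 bp upstream, with folds of 169 and 221. The pairs nearest Stx12 (193 and 173) and Gpd1l, a glycerol phosphate dehydrogenase gene (156 and 268), shared 399 and 599 bp.

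The 8 named overlaps between parental genomes shared between 199 and 1799 bp. Near Tmprss12 the maternal member of Ezh2m+/p+ zygotes, chr15:100268601-100269599 (fold 41.5), lay within the paternal member chr15:100268401-100270799 (fold 78.2). Near Ehf, 28852 bp downstream of its start, the maternal and paternal members shared 599 bp (folds 37.5 and 36.1). In Ezh2m-/p+ zygotes the overlaps lay near Egln3, a prolyl hydroxylase gene of the hypoxia response, near Dars, an aspartyl-tRNA synthetase gene, near Epha4, an ephrin receptor gene, and near 4930547E08Rik, with 599, 799, 399 and 1799 bp shared. The remaining named overlaps were both downstream of Tmem121, with 199 and 999 bp shared in Ezh2m+/p+ zygotes. They are given in order of the smaller fold within a genotype.

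The members of largest fold upstream and downstream of a start, ranked within each side, differed between the lists. In the Ezh2m+/p+ maternal list they were nearest Gm38404, a lncRNA gene (127, downstream), Syt13, a synaptotagmin gene (122, upstream), Sspn, the sarcospan gene (89.8, upstream), and Galnt12, a glycosyltransferase gene (88.5, downstream). In the Ezh2m-/p+ maternal list they were nearest Rhobtb2 (122) and Serpine3, a serpin gene (101), upstream, and Cpn2, a carboxypeptidase N subunit gene (68.1), and Kcnk16, a potassium channel gene (67.3), downstream. None of these 8 maternal members overlapped a peak of the other genotype, where 9.47% and 5.78% of all maternal peaks did.

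In the Ezh2m+/p+ paternal list the largest upstream folds were nearest Nxpe4 (367) and Il1b, the interleukin-1 beta gene (355). The largest downstream folds were nearest Tlr5, the receptor gene for flagellin (295), and Batf3, an AP-1 family factor gene (289). In the Ezh2m-/p+ paternal list the largest upstream folds were nearest Mgat5, a glycosyltransferase gene (536), and 1700006A11Rik (410). Its largest downstream folds were nearest Tcf23 (465) and Snai2, a factor gene of epithelial-mesenchymal transition (449). Each of these 8 paternal members overlapped a peak of the other genotype, where 66.1% and 45.7% of all paternal peaks did.

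The longest members were paternal. That of the Ezh2m-/p+ paternal list spanned 29999 bp upstream of Epas1 (chr17:86715001-86744999, fold 12.5), and that of the Ezh2m+/p+ paternal list 21199 bp upstream of Wnt4, a signalling ligand gene (chr4:137246401-137267599, fold 33.7). The longest maternal members were 14999 bp upstream of Olfm1, an olfactomedin gene, in Ezh2m+/p+ (chr2:28137201-28152199, fold 5.34) and 11799 bp upstream of Ivns1abp in Ezh2m-/p+ zygotes (chr1:151243801-151255599, fold 8.32).

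In all, 5051 genes were nearest to at least 1 member. Of these, 2844 had members in 1 list, 1906 in 2 lists, 260 in 3 lists and 41 in all 4. A single member was assigned to 82.9% of 1143 maternal nearest genes in Ezh2m+/p+ zygotes and 78.6% of 1863 in Ezh2m-/p+ zygotes. In the paternal lists 56.5% of 2101 and 53.4% of 2493 genes had 1 member, and 210 and 254 genes had at least 5 members. By biotype, 82.3% to 83.6% of members were nearest a protein-coding gene and 12% to 14.5% nearest a lncRNA gene, beside 85.5% to 86.6% and 10.1% to 10.8% of all peaks.

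Lists shared nearest genes also where no members overlapped. The maternal lists shared 436 genes, or 38.1% and 23.4% of their genes, but at only 115 of these did an Ezh2m+/p+ member overlap an Ezh2m-/p+ member. The paternal lists shared 1625 genes (77.3% and 65.2%), and 1343 of them had an overlap. The parental genomes shared 151 genes in Ezh2m+/p+ zygotes (13.2% of the maternal and 7.19% of the paternal genes) and 297 in Ezh2m-/p+ zygotes (15.9% and 11.9%). Where a shared gene had members on 1 side only in each list, the side was the same for 324 of 378 genes (85.7%) between the maternal lists and 1273 of 1304 (97.6%) between the paternal lists. Between the parental genomes the side was the same for 101 of 128 (78.9%) in Ezh2m+/p+ and 194 of 257 (75.5%) in Ezh2m-/p+ zygotes. Most members of every list lay upstream, so some agreement of sides arises from that alone. The sharing of genes and of sides was not measured over all peaks, so these values do not show a trait particular to members.

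Among the genes with members in all 4 lists, Tmem121 had the most, 16 in all, 2 and 1 in the maternal and 5 and 8 in the paternal lists of Ezh2m+/p+ and Ezh2m-/p+ zygotes. All of them lay downstream of its start, between 35471 and 95271 bp away. Cd44, the hyaluronan receptor gene, had 2, 4, 3 and 3 members in the order Ezh2m+/p+ maternal, Ezh2m-/p+ maternal, Ezh2m+/p+ paternal and Ezh2m-/p+ paternal, all of them upstream. The maternal members of Cd44 lay 20136 to 73936 bp away and the paternal ones 4736 to 28736 bp away. Cenpf, a kinetochore protein gene, had 2, 3, 3 and 4 members, with the maternal ones all downstream and 2 in each paternal list upstream. The others named by number were Gm27162 (12 members), Pik3cg, a phosphoinositide kinase gene (11), Tmem17 (10), Fshb, the follicle-stimulating hormone beta subunit gene (9), and Gm38404 (9), with Smim23 tied at 9.

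The genes with most members in a list had 19 to 25 members over stretches of 89.0 to 206 kb in the paternal genome. Their recurrent members are given as counts, to be read beside the shares of all peaks that recurred, 66.1% (Ezh2m+/p+) and 45.7% (Ezh2m-/p+) in the paternal and 9.47% and 5.78% in the maternal lists. Nearest 4922502N22Rik were 24 Ezh2m+/p+ and 25 Ezh2m-/p+ paternal members within 184 and 182 kb, of which 21 and 17 recurred. Tgm3, a transglutaminase gene, had 19 Ezh2m+/p+ members, all upstream within 89.0 kb, and each recurred. Epas1 had 19 in the same list, and 18 recurred. In the Ezh2m-/p+ paternal list, Gm20765 had 21 members (9 recurrent) and 1700003H04Rik 19 (13 recurrent). In the maternal lists the highest numbers were 7 for Sspn and 4 each for Slc1a3, a glutamate transporter gene, and 1700109G15Rik in Ezh2m+/p+, and 7 each for Ivns1abp, Atp6v1g3 and Tsen15 in Ezh2m-/p+ zygotes, with at most 1 recurrent member at any of them.

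Genes of Polycomb complexes and of EHMT1 and EHMT2 were nearest to 1, 0, 3 and 2 members in the order Ezh2m+/p+ maternal, Ezh2m-/p+ maternal, Ezh2m+/p+ paternal and Ezh2m-/p+ paternal. These were 0.0724%, 0% (upper Wilson limit 0.158%), 0.0645% and 0.0353% of members, beside 0.0348%, 0.0416%, 0.0280% and 0.0219% of all peaks. Of the 13 genes in this list, 3 had a member, and all members lay upstream. Suz12, encoding a core PRC2 subunit, had an Ezh2m+/p+ maternal member 3307 bp upstream (chr11:79988001-79989799, fold 36.2) and an Ezh2m+/p+ paternal member 11107 bp upstream (chr11:79980801-79981999, fold 36.1). The Ezh2m-/p+ lists had no member nearest Suz12. Ezh2 had a paternal member in each genotype, 51860 bp upstream in Ezh2m+/p+ (chr6:47647201-47648199, fold 72.2) and 52060 bp upstream in Ezh2m-/p+ zygotes (chr6:47647401-47650199, fold 22.7), and these overlapped. Jarid2 also had overlapping paternal members, 93336 bp upstream in both (folds 60.2 and 94.6), where 66.1% of all Ezh2m+/p+ and 45.7% of all Ezh2m-/p+ paternal peaks overlapped a peak of the other genotype. The Ezh2m-/p+ maternal list had no member nearest these genes.

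The list of imprinted genes, which joined classical imprinted genes with genes reported to carry H3K27me3-dependent imprints in early embryos, held 6 and 17 maternal and 49 and 40 paternal members of Ezh2m+/p+ and Ezh2m-/p+ zygotes. That was 0.434% (0.199 to 0.944%) and 0.702% (0.439 to 1.12%) of the maternal members and 1.05% (0.798 to 1.39%) and 0.707% (0.520 to 0.961%) of the paternal members, beside 0.592%, 0.770%, 0.616% and 0.491% of all peaks of these lists. Of the paternal members 45 of 49 and 29 of 40 recurred, where 66.1% and 45.7% of all paternal peaks did. Of the 6 and 17 maternal members none recurred, beside 9.47% and 5.78% of all maternal peaks. Most paternal members of the list lay near 4 transcription factor genes. These were Etv6, an ETS repressor, Epas1, a hypoxia-inducible factor, Prox1, a homeobox factor of lymphatic development, and Otx2, a homeobox factor of the anterior head.

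Members near these 4 genes kept the same side in both genotypes for Etv6, Prox1 and Otx2. Etv6 had 10 Ezh2m+/p+ and 9 Ezh2m-/p+ paternal members, all upstream, covering 37.4 and 57.6 kb within stretches of 69.0 and 70.0 kb. Prox1 had 8 and 9 and Otx2 7 and 7, all downstream. Epas1 had 16 upstream and 3 downstream members in Ezh2m+/p+ and 7 upstream and 3 downstream in Ezh2m-/p+ zygotes, where fewer but longer members covered 67.8 kb beside 56.8 kb. In Ezh2m+/p+ zygotes 10 of 10 members recurred near Etv6, 18 of 19 near Epas1, 7 of 8 near Prox1 and 7 of 7 near Otx2. In Ezh2m-/p+ zygotes 8 of 9, 8 of 10, 6 of 9 and 5 of 7 did in the same order. Of all paternal peaks 66.1% and 45.7% recurred in these genotypes.

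**Figure D5:**
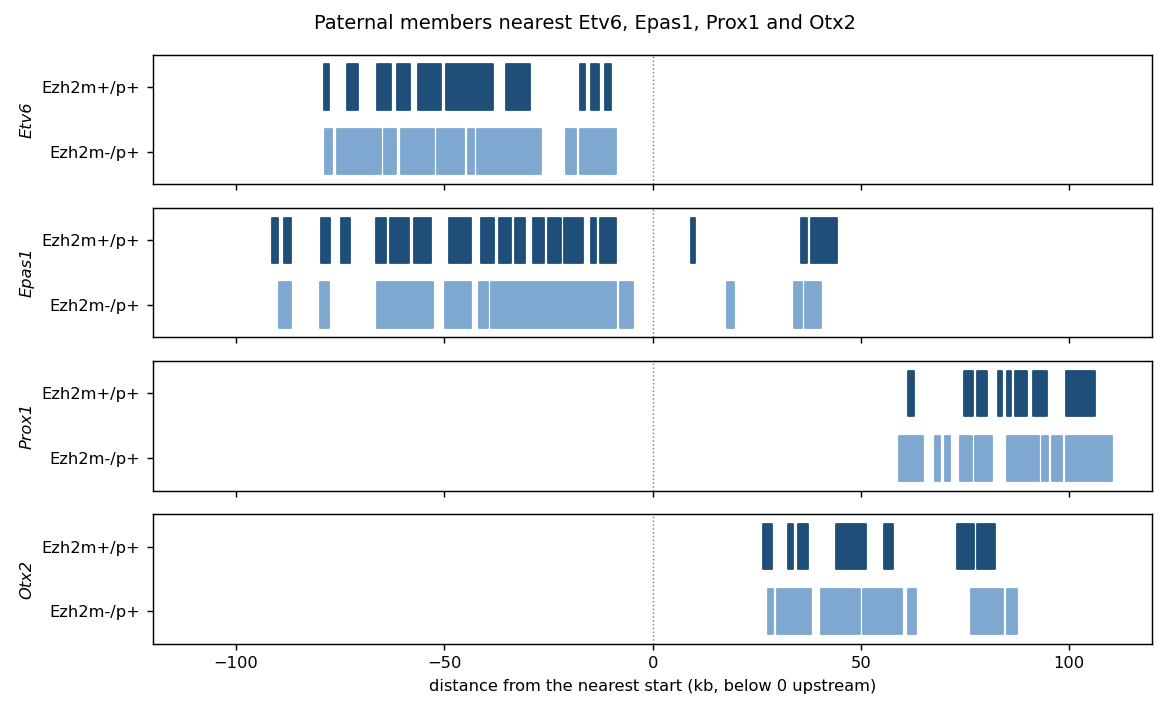
Paternal members nearest Etv6, Epas1, Prox1 and Otx2 in the Ezh2m+/p+ list (upper row of each panel) and the Ezh2m-/p+ list (lower row), drawn to scale as bars by their distance from the nearest start (horizontal axis, kb, below 0 upstream). Members of Etv6 lie only upstream and those of Prox1 and Otx2 only downstream in both genotypes, and members of Epas1 lie on both sides.

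The other 4 imprinted genes named by fold had 1 or 2 members in a list. Gab1, an adaptor protein gene, had overlapping paternal members 17082 bp upstream in both genotypes (folds 5.27 and 158). Slc38a1, an amino acid transporter gene, had an Ezh2m+/p+ maternal member (chr15:96547201-96552199, fold 77.7), and Mkrn3 an Ezh2m-/p+ paternal member (fold 63.0). Mirg, a non-coding RNA gene of the Dlk1-Dio3 domain, had Ezh2m-/p+ maternal members 87037 and 99637 bp downstream (folds 53.5 and 41.3).

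Olfactory and vomeronasal receptor genes, which lie in large clusters, were nearest to 158 Ezh2m+/p+ (3.40%, 2.92 to 3.96%) and 186 Ezh2m-/p+ paternal members (3.29%, 2.85 to 3.78%), where 1.80% and 1.83% of all peaks of the lists were nearest such genes. In the maternal lists there were 13 (0.941%, 0.550 to 1.60%) and 25 (1.03%, 0.700 to 1.52%), beside 0.453% and 0.573%. The upstream share of these members was between 53.8% and 56.0%.

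Developmental transcription factor genes were nearest to 32 and 51 maternal and 91 and 102 paternal members of Ezh2m+/p+ and Ezh2m-/p+ zygotes. These were 2.32%, 2.11%, 1.96% and 1.80% of members, beside 1.38%, 1.66%, 1.29% and 1.29% of all peaks. Of the members in this list 71.4% and 49.0% recurred in the paternal lists, beside 66.1% and 45.7% of all paternal peaks. Among them, Hand1, a factor gene of heart and trophoblast, had 16 Ezh2m+/p+ and 9 Ezh2m-/p+ paternal members, of which 14 and 9 recurred. Sox11, a factor gene of the nervous system, had 7 and 14. Foxa2, a factor gene of endoderm, had 6 in each, all upstream. These genes were named for their number of members after the values were seen.

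Cytokine and chemokine genes were nearest to 65 and 63 paternal members (1.40%, 1.10 to 1.78%, and 1.11%, 0.871 to 1.42%), beside 0.565% and 0.456% of all peaks. These lay at only 17 and 16 genes, such as Tnfsf11 with 13 and 9 members and Tnfsf4 with 13 and 11. In the maternal lists 17 and 18 members (1.23% and 0.743%, beside 0.853% and 0.458% of all peaks) lay at 14 and 15 genes. None of them recurred, where 9.47% and 5.78% of all maternal peaks did, and of the paternal members 48 of 65 (73.8%) and 45 of 63 (71.4%) recurred.

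Cadherin and synaptic adhesion genes were nearest to 4, 8, 17 and 30 members in the order Ezh2m+/p+ maternal, Ezh2m-/p+ maternal, Ezh2m+/p+ paternal and Ezh2m-/p+ paternal. These were 0.289% (0.113 to 0.742%), 0.330% (0.167 to 0.650%), 0.366% (0.228 to 0.585%) and 0.530% (0.372 to 0.756%) of members beside 0.627%, 0.958%, 1.19% and 1.54% of all peaks. The share of all peaks lay within the interval of the Ezh2m+/p+ maternal list and above the intervals of the other 3. Other groups differed in direction between the lists. In the same order, zinc finger genes had 6, 23, 45 and 57 members, which were 0.434%, 0.95%, 0.968% and 1.01% of members beside 0.714%, 0.864%, 1.2% and 1.31% of all peaks. Ion channel and neurotransmitter receptor genes had 22, 39, 35 and 57 members (1.59%, 1.61%, 0.753% and 1.01%, beside 1.67%, 1.41%, 1.25% and 1.27% of all peaks). Genes of Wnt, Fgf, Bmp and Notch signalling had 13, 6, 26 and 42 members (0.941%, 0.248%, 0.559% and 0.742%), and their share of members was below that of all peaks in the Ezh2m-/p+ maternal list and above it in the other 3 (0.453%, 0.458%, 0.431% and 0.456% of all peaks). Oocyte and maternal-effect genes had 4 members in the Ezh2m-/p+ maternal list (0.165%, beside 0.0937% of all peaks). In the other lists they had none, with upper Wilson limits of 0.277%, 0.0826% and 0.0678%, where 0.0348%, 0.0840% and 0.0657% of all peaks were nearest such genes.

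Predicted and RIKEN gene models were nearest to 207, 371, 697 and 922 members, which is 15%, 15.3%, 15% and 16.3% beside 11.0%, 11.1%, 12.5% and 13.3% of all peaks. Their members were 51.3% to 57.4% upstream. MicroRNA genes had 40, 53, 133 and 145 members, or 2.89%, 2.19%, 2.86% and 2.56% beside 2.52%, 2.38%, 2.66% and 2.58% of all peaks, with upstream shares of 35%, 37.7%, 48.1% and 49.0%. The shares of all peaks given beside each gene list include the members, and the lists were compared by counts alone.

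Recurrence between genotypes differed among the gene lists of paternal members, to either side of the 66.1% (Ezh2m+/p+) and 45.7% (Ezh2m-/p+) of all paternal peaks. It was lower in both genotypes for members near olfactory and vomeronasal receptor genes (53.8% and 35.5%), zinc finger genes (60% and 40.4%), ion channel and receptor genes (62.9% and 38.6%) and predicted and RIKEN gene models (63.0% and 43.5%). It was higher in both for imprinted genes (91.8% and 72.5%), cytokine and chemokine genes and developmental factor genes. MicroRNA genes (60.2% and 50.3%), Wnt, Fgf, Bmp and Notch genes (69.2% and 38.1%) and adhesion genes (70.6% and 36.7%) stood on different sides in the genotypes. Members of a list share genes and neighbourhoods, and no difference between lists was tested.

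By chromosome, the upstream share was over 50% on each of 20 chromosomes in every list. Per Mb of intergenic sequence under 100 kb from a start, members were sparsest on chromosome X in the Ezh2m+/p+ maternal (0.329), Ezh2m-/p+ maternal (0.966) and Ezh2m+/p+ paternal lists (2.71), and on chromosome 16 in the Ezh2m-/p+ paternal list (4.64, with 4.83 on X). They were densest on chromosome 11 (4.83) in the Ezh2m+/p+ maternal, 18 (8.39) in the Ezh2m-/p+ maternal, 14 (16.5) in the Ezh2m+/p+ paternal and 1 (16.0) in the Ezh2m-/p+ paternal list. The share of paternal members that recurred ran from 51.0% on chromosome 7 to 82.4% on chromosome 1 in Ezh2m+/p+ and from 34.6% on chromosome 8 to 64.4% on chromosome 4 in Ezh2m-/p+ zygotes.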

How the data were processed

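H3K27me2 was profiled in 2 groups of zygotes with 1 H3K27me2 and 1 input library each. The authors used Trimmomatic 0.38 for trimming, Bowtie2 for alignment to mm10, SAMtools for a filter on mapping quality and Picard against duplicates, split reads into C57BL/6 and PWK genomes with SNPsplit, which keeps only reads over a strain variant, called peaks with SICER against the input, filtered them by length and fold, and annotated them with ChIPseeker. The deposited values used here are the fold, a ratio of H3K27me2 to input reads per peak that the authors' peak caller gave with scaling not stated, the peak length and the distance to the nearest start. The deposited table of coverage per chromosome was not used, because it holds no value for single peaks.

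Peaks on chromosomes 1 to 19 and X were taken as listed, 1-based. Members were intergenic peaks under 100 kb from a start. Peaks of different lists that shared 1 bp or more counted as overlapping. Shares have 95% Wilson intervals and medians 95% intervals by order statistics. Both cover counting error only, and neighbouring peaks are not independent. Intergenic sequence was measured in 200 bp bins of GRCm38 (mm10) with GENCODE vM21, more than 3 kb from transcripts' ends. With that annotation, 78.2% to 79.4% of members had the listed distance, 90.8% to 92.1% the same side, and 23, 31, 35 and 48 members touched a transcript. Symbols came from RefSeq and were missing for 1, 2, 12 and 9 members. Intervals were computed with scipy 1.17.1 and tables with pandas 2.3.3 and numpy 2.4.6 under Python 3.11.15, figures were drawn with matplotlib 3.10.9, and the overlap was tested on simulated intervals.

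Named peaks were, in each list, the largest folds on each side, the longest member, the 3 genes with most members and the peaks nearest the limit. Also named were the 5 recurrent pairs of each parental genome and 8 overlaps between parental genomes with the largest smaller fold, the 8 genes with most members among those in all 4 lists, members at Polycomb and EHMT genes, and 8 imprinted genes by fold. Members, gene lists and rules were chosen with earlier results of these data known. Alternatives were a reciprocal overlap of 50%, peaks longer than 2000 bp, a fold over 10, a limit of 50 kb, 1 member per nearest gene, autosomes, covered base pairs and members outside dense windows.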

Additional observations from a re-analysis of the deposited data

How the results depend on the processing

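No paired analysis was possible because each group had 1 library. Of 68 values recomputed under another setting, 33 stayed within their interval or within 1.5 times their count, and the following did not. The cause was not tested except where fewer peaks remained by construction.

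The share of members among peaks was 24.7% (Ezh2m+/p+) and 22.5% (Ezh2m-/p+) of the covered base pairs of the paternal lists, and 24.0% of Ezh2m-/p+ paternal peaks over 2000 bp. The upstream share under 50 kb was 69.0% and 70.0% in the maternal and 65.6% and 65.6% in the paternal lists of Ezh2m+/p+ and Ezh2m-/p+ zygotes. With 1 member per nearest gene it was 65.0% in both paternal lists, above the 64.1% of the intergenic sequence under 100 kb. The median distance was 31989 bp for Ezh2m+/p+ maternal members with a fold over 10, above that of the intergenic sequence, and 27841 bp for Ezh2m+/p+ paternal members over 2000 bp.

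Recurrence between genotypes with a fold over 10 in both lists was 5.10% and 1.49% in the maternal and 46.7% and 40.5% in the paternal lists of Ezh2m+/p+ and Ezh2m-/p+ zygotes. Over 2000 bp it was 5.61% in the Ezh2m+/p+ maternal, 73.5% in the Ezh2m+/p+ paternal and 40.1% in the Ezh2m-/p+ paternal list. A reciprocal overlap of 50% gave 4.85%, 2.64%, 32.5% and 26.1%, in the order Ezh2m+/p+ maternal, Ezh2m-/p+ maternal, Ezh2m+/p+ paternal, Ezh2m-/p+ paternal. Outside the dense windows the paternal shares were 53.0% and 36.2%. The paternal share was above the maternal share in both genotypes under each of these 4 settings.

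Overlaps between parental genomes numbered 0 in all 4 lists over 2000 bp. With a fold over 10 they numbered 4 in Ezh2m-/p+ maternal, 5 in Ezh2m+/p+ paternal and 4 in Ezh2m-/p+ paternal members, and with a reciprocal overlap of 50%, 1, 0, 2 and 2 in the same order of lists as above. Depth per parental genome was not examined, so a region without a listed peak may lack reads over strain variants, and its absence from a list does not show absence of the mark.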
